A study of Drosophila melanogaster with 52 samples.

Results

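The egg activation and PNG kinase genes are 6 Drosophila genes, png, plu, gnu, cort, wisp and sra, that act around the passage of the egg from meiosis into the first nuclear divisions of the embryo. They were taken by name, by a rule that uses no measured value, although earlier results of these data were known when the set was drawn up, and they make up 6 of the 16680 genes in the deposited tables. At egg activation in Drosophila, the PAN GU (PNG) kinase is switched on and drives the translation of many stored maternal mRNAs, among them those of the mitotic cyclin CycB and of the translational repressor smg. The kinase is a complex of the catalytic subunit PNG, the subunit PLU and the activating subunit GNU. CORT is a meiosis-specific activator of the anaphase-promoting complex (APC/C), the ubiquitin ligase that removes cyclins. WISP is the cytoplasmic poly(A) polymerase of the GLD-2 type that lengthens the tails of stored mRNAs, and SRA (sarah) is a regulator of calcineurin, the calcium-dependent phosphatase that takes part in egg activation. The mRNAs of all of these genes are laid down in the oocyte, so their levels in the embryo after fertilization are those of maternal RNA that is later cleared, with any new transcription added to it.

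RNA was sequenced from pools of hand-selected embryos in 26 groups of 2 libraries, 52 libraries in all. The 6 tested genotypes were set against 5 wild-type collections of w1118 embryos, the 2 overexpression genotypes sharing 1 collection. Mislocalized dPCIF1 embryos carried a homozygous GFP knock-in of dPCIF1 (CG11399, the fly homologue of the mRNA cap methyltransferase PCIF1) together with maternally expressed JabbaTrap (VhhGFP4-jabba-VhhGFP4 under UASp), which holds GFP-tagged nuclear protein on lipid droplets in the cytoplasm. Overexpression embryos carried UASp-myc-HIRA alone, or with UASp-myc-dPCIF1, driven by the maternal driver matalpha4-GAL-VP16, HIRA being a chaperone of the histone variant H3.3. The dPCIF1 S111A S115A embryos came from mothers with alanine knock-ins at a pair of serines of dPCIF1. These genotypes and their wild types were collected at 0.5 to 1 h and at 1 to 1.5 h. The M-Z+ HIRA and M-Z+ H3.3 mutants lacked the maternal but not the zygotic gene. H3.3 mutants lacked both H3.3A and H3.3B and came from mothers that had escaped lethality, and these embryos and their wild types were collected at 2.5 to 3 h as well.

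The libraries held 15073545 to 31579940 estimated counts (median 23610130), and all 6 genes passed the filter on low counts in each of the 5 experiments. Hira RNA was raised by 3.60 to 3.84 on the log2 scale in both kinds of overexpression embryo, and CG11399 RNA by 2.59 to 2.704 in those with the dPCIF1 transgene. His3.3A and His3.3B were lower in the H3.3 mutant libraries at each stage (log2 differences of -2.04 to -0.85). Hira RNA was lower in HIRA mutants at 0.5 to 1 h and at 1 to 1.5 h (log2 differences of -1.22 and -0.79) but higher by 0.89 at 2.5 to 3 h, with 18.3 and 20.4 CPM (counts scaled to library size) in the libraries labelled HIRA mutant, against 10.01 and 10.8 CPM in wild type. The RNA of CG11399 was lower by 2.34 and 2.37 log2 units in the S111A S115A libraries, and for the protein trap the RNA level checks nothing. Of lists kept to show other tissues and age, 21 early zygotic genes had no member at 0 in any library. The 11 eggshell genes of follicle cells summed to 212 and 244 CPM in H3.3 mutants at 1 to 1.5 h, none of them at 0, against 0.0355 and 0.0348 CPM in wild type, where 10 of the 11 were at 0 in each library. They also summed to 101 and 105 CPM in HIRA and dPCIF1 co-overexpression embryos of that stage, against 0.134 and 0.167 CPM in wild type. A list of 10 genes of the later, differentiated embryo also differed between collections. In mislocalized dPCIF1 embryos it summed to 91.1 and 95.05 CPM at 0.5 to 1 h, against 6.79 and 6.58 CPM in wild type. At 1 to 1.5 h these sums were 85.5 and 84.6 CPM against 92.6 and 102 CPM. With HIRA overexpressed it summed to 237 and 228 CPM at that stage, and with both transgenes to 17.5 and 17.2 CPM. Their wild type had 62.4 and 64.4 CPM. In S111A S115A embryos of that stage it summed to 129 and 170 CPM, against 43.2 and 38.6 CPM in wild type. At 2.5 to 3 h its sums were 164 and 146 CPM in HIRA mutants and 1401 and 1427 CPM in their wild type, and 1797 and 1809 CPM in H3.3 mutants and 612 and 682 CPM in theirs. The part of these lists in the results that follow was not tested.

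The genes lie apart from one another in the dm6 assembly. The PNG kinase gene png spans X:1356488-1357601 on the minus strand, while gnu spans 3L:14802380-14803360 and plu 2R:20262958-20263684, both also on the minus strand. None of the 3 shares exon bases with another annotated gene. By contrast, cort (2L:6674682-6676635, minus strand) shares 99 exon bases with cup and CG34310 on the opposite strand, and sra (3R:16186999-16197584, plus strand) shares 301 with Bin1. wisp lies at X:11893943-11899920 on the plus strand and has the longest transcripts of the 6, with a median length of 5279 bases against 616 for plu and 923 for gnu. Because raw counts grow with transcript length, levels were set against each other between genes only in TPM, which takes length into account. At 0.5 to 1 h gnu was the most abundant of the 6 in TPM in 10 of 10 wild-type libraries, with a median of 479 TPM, and cort was the lowest in 8 of 10 with a median of 74.8 TPM. In the 1 to 1.5 h libraries gnu was still highest in 10 of 10 (median 413 TPM) and cort lowest in 10 of 10 (median 42.4 TPM). By 2.5 to 3 h wisp was highest in 4 of 4 wild-type libraries, at a median of 58.8 TPM, and gnu had a median of 7.02 TPM. Effective lengths were computed from longer fragments in the mislocalized dPCIF1 and H3.3 experiments than in the others, and this weighs on the TPM of the short transcripts plu and gnu, so all comparisons of a gene between groups used CPM.

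In wild-type embryos cort and png were lower by 1 to 1.5 h in every collection, and all 6 mRNAs were lower by 2.5 to 3 h. Between 0.5 to 1 h and 1 to 1.5 h, the cort mRNA fell in 5 of 5 collections (log2 changes of -1.13 to -0.63, the largest edgeR adjusted p being 1.13e-07) and png fell in 5 of 5 (-0.70 to -0.33, largest adjusted p 0.000659). plu passed the test in 1 of the 5 collections, where it was lower, gnu was lower in 2 and higher in 1, wisp was higher in 3 and sra was higher in 2. The share of all genes past the adjusted p, in either direction, varied between the collections. It was smallest in the H3.3 experiment's wild type (1848 of 10644 genes) and largest in that of the mislocalized dPCIF1 experiment (5740 of 8700). Past both an adjusted p of 0.05 and a log2 change of 1, only cort in the mislocalized dPCIF1 experiment's wild type was lower. This is 1 of 30 gene and collection pairs, where 1.69% of all such pairs tested were lower. In the second interval, 2.5 to 3 h against 1 to 1.5 h, all 12 of 12 pairs fell past both thresholds, where 21.7% of all tested pairs did. The changes were -6.51 and -5.08 for gnu, -4.34 in both collections for png, -3.63 and -3.15 for cort, -2.43 and -2.16 for wisp, -2.36 and -1.99 for sra and -1.85 and -1.72 for plu, the HIRA experiment's wild type being given first. The genes of the activating and catalytic subunits of the kinase thus lost a larger share of their mRNA than plu did. Wild type kept 1.07% and 2.96% of its gnu, and 27.6% and 30.2% of its plu, over this interval.

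**Figure D1:**
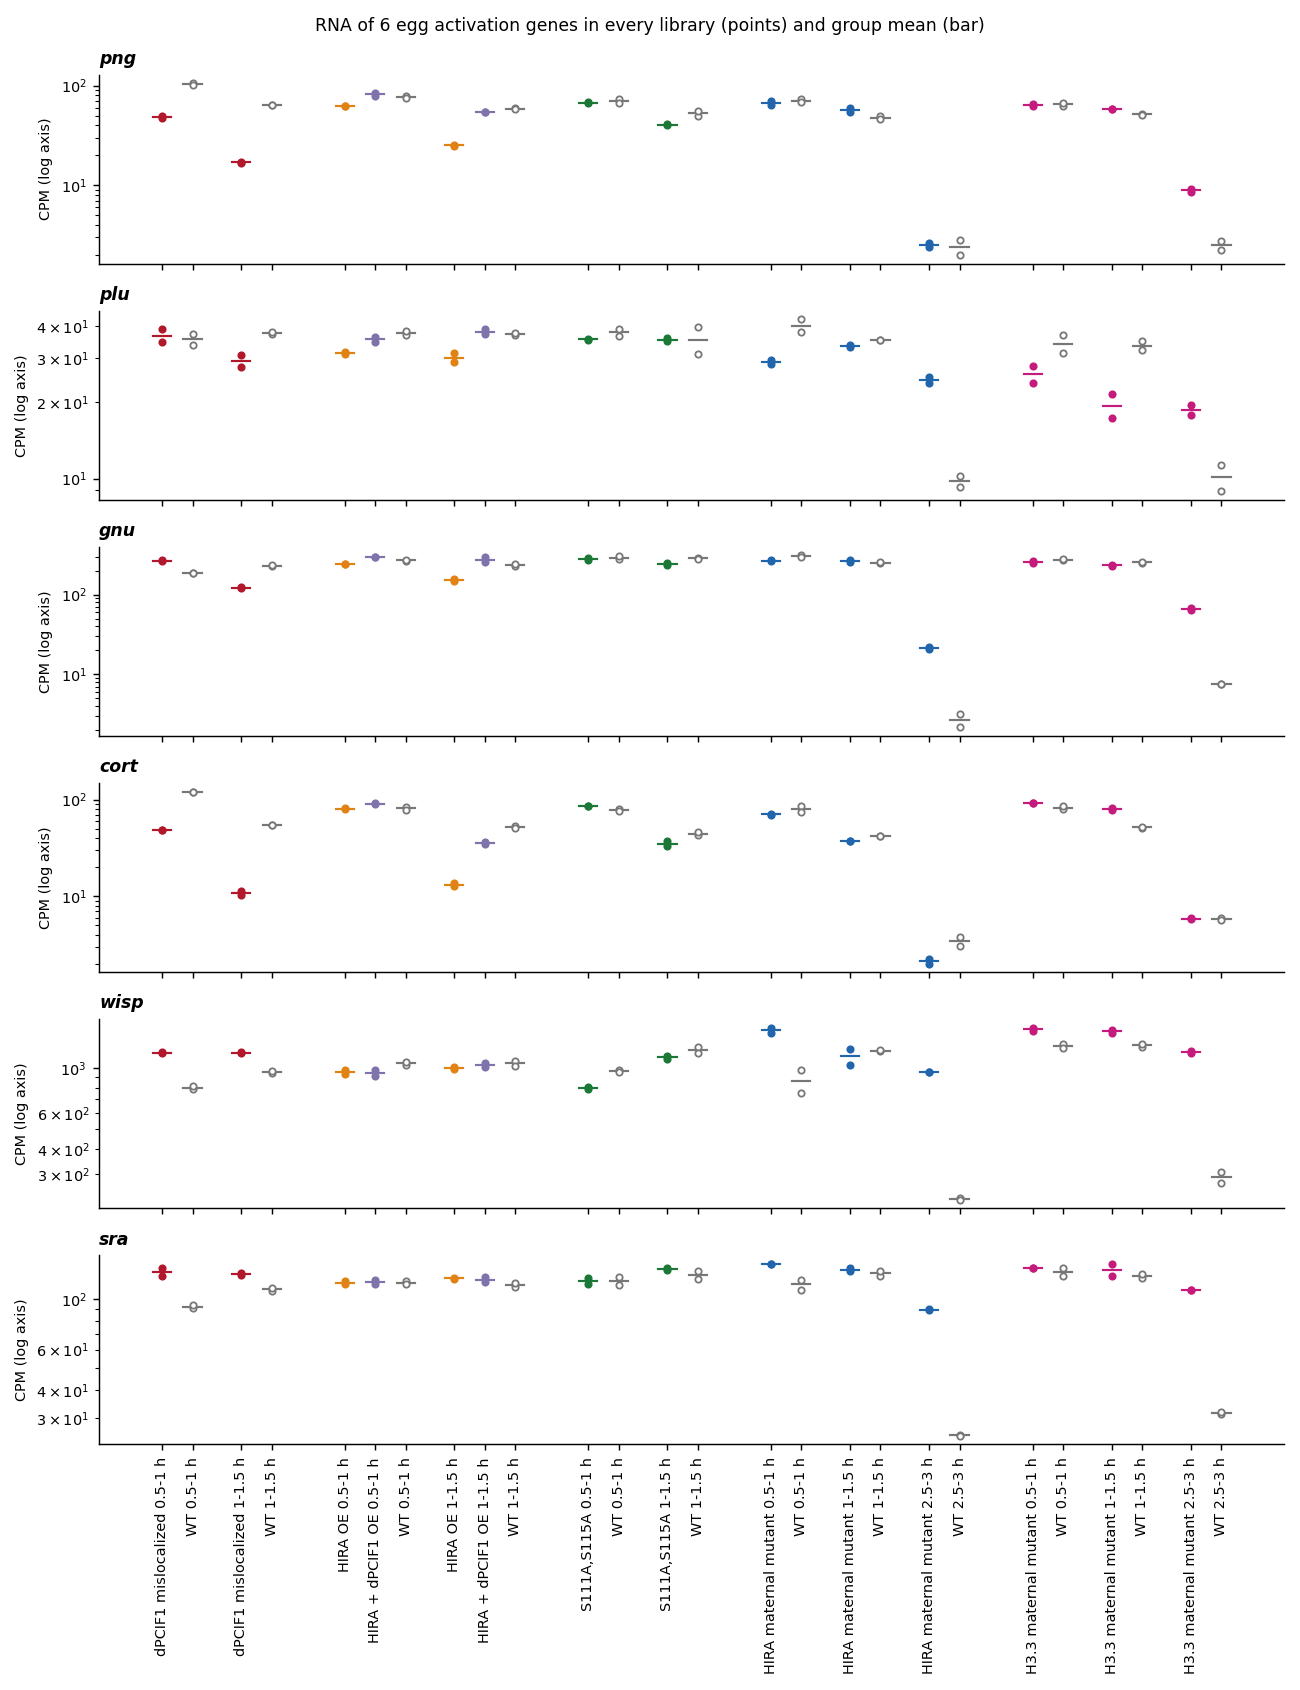
CPM of png, plu, gnu, cort, wisp and sra (1 panel each, log axis, scaled within each experiment) in every library, by experiment and stage. Points are libraries and bars the mean of 2, with tested genotypes filled and wild type open to their right; at 2.5 to 3 h the wild-type points sit lowest for gnu, wisp, sra and plu, while for cort mutant and wild type lie close together.

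Across the 16 comparisons of a tested genotype with its wild type, or of co-overexpression with HIRA overexpression, 16 of 96 gene and comparison pairs passed both thresholds, where 19.6% of all pairs tested did. At the adjusted p alone 60 of 96 passed, where 56.1% of all pairs did. As a set, the genes were therefore called at about the rate of the whole transcriptome, and the calls were unevenly spread. All 16 fell in 6 comparisons, those of mislocalized dPCIF1 at both stages, HIRA overexpression against wild type and co-overexpression against HIRA overexpression at 1 to 1.5 h, and the HIRA and H3.3 mutants at 2.5 to 3 h. In the early stages every call past both thresholds concerned png or cort, whereas at 2.5 to 3 h they concerned gnu, wisp and sra in both mutants, plu in the HIRA mutant and png in the H3.3 mutant.

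**Figure D2:**
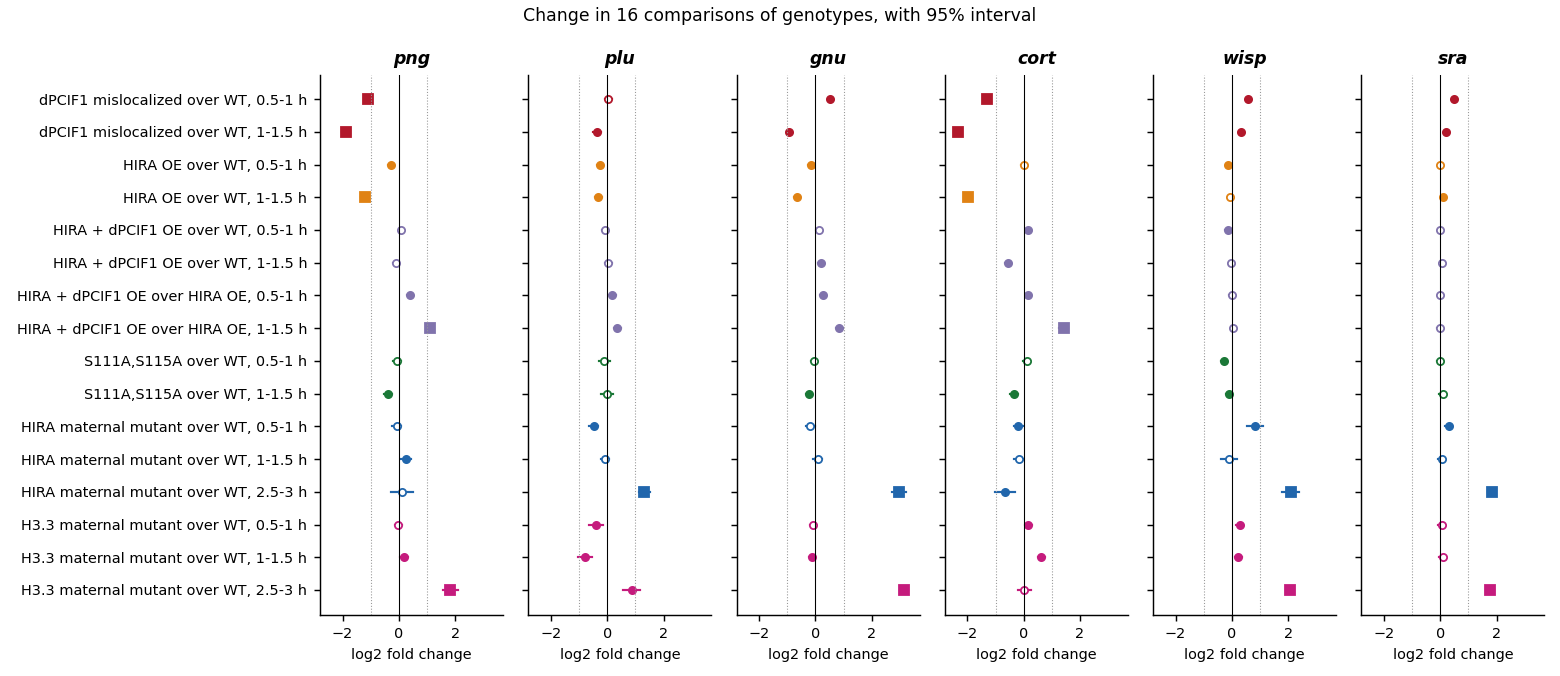
Log2 fold change of each gene (1 panel each) in the 16 comparisons, tested genotype over wild type or co-overexpression over HIRA overexpression, with 95% intervals. Squares passed the adjusted p and a log2 change of 1 (dotted lines), filled circles the adjusted p alone and open circles neither; squares for png and cort lie below 0 in mislocalized dPCIF1 and HIRA overexpression embryos, and squares for gnu, wisp and sra lie above 0 in both maternal mutants at 2.5 to 3 h.

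The meiotic APC/C activator cort had the strongest early response. At 0.5 to 1 h it was at 48.3 and 48.7 CPM in mislocalized dPCIF1 embryos, against 121 and 120 CPM in wild type. In the next collection, at 1 to 1.5 h, it was at 10.3 and 11.2 CPM in mislocalized dPCIF1 embryos, against 55.2 and 54.8 CPM in wild type. Both mutant libraries lay below both wild-type libraries at each stage, 2.49-fold lower at the first (log2 -1.31, SE 0.042, edgeR adjusted p 2.36e-19) and 5.09-fold lower at the second (log2 -2.35, SE 0.057, adjusted p 1.03e-22). The catalytic subunit gene png followed the same course at a smaller size. It was at 49.4 and 47.5 CPM in mislocalized dPCIF1 embryos and 106 and 101 CPM in wild type at 0.5 to 1 h, and at 17.2 and 16.9 CPM against 63.2 and 63.6 CPM at 1 to 1.5 h. The log2 differences were -1.09 (SE 0.044, adjusted p 1.88e-17) and -1.90 (SE 0.053, adjusted p 1.90e-21), again without overlap of libraries. These are 2 of 6 genes past both thresholds in the lower direction at each stage, where 4.31% of all genes were at 0.5 to 1 h and 14.5% were at 1 to 1.5 h.

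The size of the first of these differences depended on the wild type and on the scaling. The wild-type collection of this experiment stood apart from the other 4 at 0.5 to 1 h, with 128.5 CPM of cort and 110.1 CPM of png on a scale common to all libraries, where the others averaged 76.1 to 84.9 and 63.9 to 80.6. Set against each of those 4 in 1 fit over all libraries, a comparison chosen after seeing the data, mislocalized dPCIF1 embryos of 0.5 to 1 h had less of both mRNAs. cort was lower by 0.58 to 0.74 log2 units and png by 0.33 to 0.67, each past the adjusted p in 4 of 4 comparisons and past the fold in none. Of all genes tested, 35.43% to 55.45% passed the adjusted p in those comparisons. Scaled on ribosomal protein genes, the 2 differences from the own wild type were -0.70 and -0.47, and with library totals as the scale that of png also missed the fold. For embryos of 1 to 1.5 h the calls held against every control: cort was lower by 1.86 to 2.24 and png by 1.39 to 1.75 against the other 4 collections, past both thresholds in 4 of 4. Of those 4 collections, only the H3.3 experiment's wild type had effective lengths computed from fragments of like length. Against it cort was lower by 2.18 and png by 1.52. The part of fragment length in these comparisons was not tested. In the 4 comparisons 61.3% to 65.8% of all genes passed the adjusted p, with or without the fold. The share of all genes past both thresholds was not counted there. The genes cup and CG34310, which share exon bases with cort, differed by -0.19 and -0.18 from the own wild type at that stage.

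The HIRA overexpression embryos gave a like picture for the same pair of genes, past both thresholds at 1 to 1.5 h only. The cort mRNA was at 13.8 and 12.7 CPM with HIRA overexpressed, at 35.1 and 36.2 CPM with HIRA and dPCIF1 overexpressed together, and at 53.8 and 50.3 CPM in wild type. The 3 groups did not overlap, and the co-overexpression libraries lay between the others. The log2 difference from wild type was -1.97 (SE 0.068, adjusted p 2.45e-21) for HIRA overexpression and -0.55 (adjusted p 3.57e-09) for co-overexpression, and co-overexpression exceeded HIRA overexpression by 1.42 (SE 0.072, adjusted p 6.96e-17). For png the values were 25.3 and 25.0 CPM with HIRA, 54.1 and 54.6 CPM with both transgenes, and 59.1 and 58.0 CPM in wild type. HIRA overexpression thus differed from wild type by -1.22 (SE 0.056, adjusted p 3.03e-18), and co-overexpression from HIRA overexpression by 1.11 (SE 0.057, adjusted p 7.37e-17), while the difference of co-overexpression from wild type did not pass the test (-0.11, 95% interval -0.21 to -0.01, adjusted p 0.0713). In each comparison this was 2 of 6 genes, where 6.94% of all genes were lower in HIRA overexpression and 4.58% were higher in co-overexpression than in HIRA overexpression. With library totals as the scale, the png difference between the 2 transgenic genotypes was 0.99 and so missed the fold.

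In the 0.5 to 1 h collection these embryos were closer to wild type. There cort was at 79.1 and 82.6 CPM with HIRA, 90.0 and 91.9 CPM with both transgenes and 84.4 and 77.7 CPM in wild type, and HIRA overexpression and wild type overlapped (log2 difference 0.00, 95% interval -0.10 to 0.10). The png mRNA was already lower with HIRA overexpressed than in wild type, by 0.29 log2 units (adjusted p 7.62e-06). Over the first interval HIRA overexpression embryos kept 16.4% of the cort level, co-overexpression embryos 39.2% and wild type 64.2%. The change over the interval was -2.60 in HIRA overexpression and -0.63 in wild type, a difference of -1.97 (SE 0.084, adjusted p 2.49e-18). In the mislocalized dPCIF1 experiment 22.2% of the cort level was kept in the mutant and 45.6% in wild type, and here the change was -2.17 against -1.13, a difference of -1.03 (SE 0.074, adjusted p 3.35e-12). For png 35.2% was kept in mislocalized dPCIF1 embryos against 61.4% in wild type, and 40.0% with HIRA overexpressed against 66.6% with both transgenes and 76.1% in wild type. Over the 6 tested genotypes, 7 of 36 gene and genotype pairs fell past both thresholds in the first interval, where 4.15% of all pairs did, and 4 of these 7 were cort.

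Of the other kinase subunits, gnu moved with png and cort at a smaller size, and plu little. In embryos of 1 to 1.5 h gnu was at 121 and 123 CPM in mislocalized dPCIF1 embryos, against 225 and 238 CPM in wild type (log2 -0.92, SE 0.035, adjusted p 9.60e-19). With HIRA overexpressed it was at 148 and 155 CPM, with both transgenes at 253 and 292 CPM, and in wild type at 231 and 243 CPM. HIRA overexpression was lower than wild type by 0.65 log2 units (adjusted p 5.13e-08), and co-overexpression exceeded both HIRA overexpression, by 0.85 (adjusted p 2.06e-09), and wild type, by 0.20 (adjusted p 0.00546). At 0.5 to 1 h, in contrast, gnu was higher in mislocalized dPCIF1 embryos, at 260 and 272 CPM against 185 and 184 CPM in wild type (log2 0.53, adjusted p 1.92e-13). The wild type of this experiment, however, also stood apart here. It averaged 196.4 CPM of gnu on the common scale, where the other 4 collections averaged 270.9 to 302.1. Against those 4 the mislocalized dPCIF1 embryos differed by -0.11 to 0.04 and passed the test in none. Against the same 4 at 1 to 1.5 h gnu was lower by 0.93 to 1.11, past the adjusted p in 4 of 4 and past the fold in 1. The adjusted p was passed by 61.3% to 65.8% of all genes in those comparisons, and the share past both thresholds was not counted. plu was lower by 0.37 log2 units (adjusted p 1.72e-05) in mislocalized dPCIF1 and by 0.32 (adjusted p 2.20e-05) in HIRA overexpression embryos of 1 to 1.5 h, but in the 4 comparisons of mislocalized dPCIF1 embryos with the other wild types it was lower past the test in 1.

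The polyadenylation and calcineurin genes wisp and sra were not lower in mislocalized dPCIF1 embryos. The wisp mRNA was at 1197 and 1180 CPM in mislocalized dPCIF1 embryos, against 947 and 970 CPM in wild type at 1 to 1.5 h, a log2 difference of 0.31 (adjusted p 1.11e-10). sra was at 128 and 129 CPM in mislocalized dPCIF1 embryos, against 109 and 111.4 CPM in wild type (log2 0.22, adjusted p 1.03e-05). In both cases the mutant libraries lay above the wild-type ones, but against the other 4 wild types wisp was higher past the test in 1 comparison and sra in 2. There 61.3% to 65.8% of all genes passed the adjusted p in either direction. The differences were larger at 0.5 to 1 h, where wisp was at 1184 and 1198 CPM in mislocalized dPCIF1 embryos, against 784 and 812 CPM in wild type (log2 0.58, adjusted p 8.28e-16). There sra was at 136 and 126 CPM in mislocalized dPCIF1 embryos, against 90.8 and 94.1 CPM in wild type (log2 0.50, adjusted p 2.38e-11). Against the other 4 wild types of 0.5 to 1 h each was higher past the test in 3, where 35.43% to 55.45% of all genes passed it in either direction. With HIRA overexpressed, wisp was at 988 and 1016 CPM and in wild type at 1083 and 1025 CPM (log2 -0.07, adjusted p 0.0915), and sra was at 122 and 124 CPM against 113 and 117 CPM (log2 0.10, adjusted p 0.0254). Between co-overexpression and HIRA overexpression neither passed the test (0.05, 95% interval -0.03 to 0.13 for wisp, and -0.02, -0.10 to 0.06 for sra).

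Ratios of counts within a library, which carry no scaling, showed the same divergence. Per cort count there were 11.7 and 10.9 gnu counts in mislocalized dPCIF1 embryos of 1 to 1.5 h and 4.07 and 4.34 in wild type. In the overexpression experiment there were 10.7 and 12.2 in HIRA overexpression, 7.21 and 8.07 in co-overexpression and 4.30 and 4.82 in wild-type embryos. The genes that were low in these embryos stood beside high levels of early zygotic RNA. The 21 early zygotic genes summed to 3124 and 3021 CPM in mislocalized dPCIF1 embryos of 1 to 1.5 h, against 586 and 598 CPM in wild type, with 21 of 21 higher past both thresholds, where 12.7% of all genes were. They summed to 1814 and 1825 CPM with HIRA overexpressed, to 1040 and 1061 CPM with both transgenes, and to 590 and 602 CPM in wild type. Within these 2 experiments, the groups of 1 to 1.5 h with more of the zygotic list had less cort and png, as the plot of these genes against the zygotic sum shows. The HIRA experiment did not follow that order for cort, whose difference at 1 to 1.5 h did not pass the test. HIRA mutants of 1 to 1.5 h had 994 and 979 CPM of the list and 37.5 and 37.0 CPM of cort, against 1642 and 1654 CPM of the list and 42.5 and 41.6 CPM of cort in wild type. Whether the embryos of those groups were of a later nuclear cycle was not tested.

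**Figure D3:**
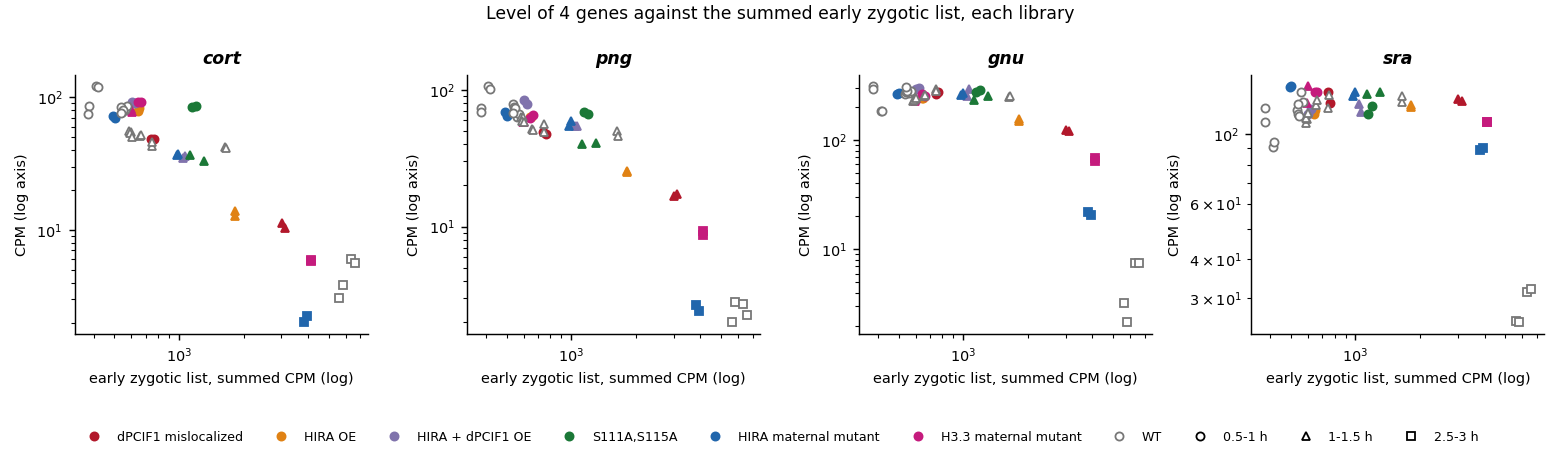
CPM of cort, png, gnu and sra (1 panel each) against the summed CPM of 21 early zygotic genes in each of 52 libraries, on log axes. Circles, triangles and squares stand for 0.5 to 1 h, 1 to 1.5 h and 2.5 to 3 h, filled for tested genotypes and open for wild type; among libraries of 1 to 1.5 h, the mislocalized dPCIF1 libraries at 3124 and 3021 CPM of the list hold the lowest cort and png.

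The S111A S115A embryos, whose zygotic list was also raised (1127 and 1304 CPM at 1 to 1.5 h, against 750 and 747 CPM in wild type), had less png, cort and gnu at that stage, with no difference of 1 log2 unit. There png was at 40.4 and 40.9 CPM in S111A S115A embryos, against 49.4 and 56.2 CPM in wild type (log2 -0.38, SE 0.071, adjusted p 0.000396). cort was at 36.9 and 33.1 CPM against 42.6 and 45.8 CPM (log2 -0.34, adjusted p 0.00079), and gnu at 233 and 250 CPM against 291 and 281 CPM (log2 -0.24, adjusted p 0.000956). In all 3 genes the mutant libraries lay below the wild-type ones. With wisp, 4 of the 6 genes were lower past the adjusted p at this stage, where 4224 of 8746 genes tested passed it in either direction. Of the remaining genes at that stage, plu and sra did not pass the test (-0.01, 95% interval -0.21 to 0.20, and 0.09, -0.03 to 0.21), and wisp was lower at both stages, by 0.28 (adjusted p 0.000189) and 0.12 (adjusted p 0.0421). At 0.5 to 1 h the zygotic list was also raised, with 1200 and 1151 CPM in S111A S115A embryos against 546 and 538.5 CPM in wild type, but png, cort and gnu did not pass the test. There cort was at 85.3 and 85.2 CPM in S111A S115A embryos, against 80.6 and 76.7 CPM in wild type (log2 0.12, adjusted p 0.149). png was at 66.7 and 68.3 CPM in S111A S115A embryos, against 73.7 and 67.6 CPM in wild type (log2 -0.07, adjusted p 0.479).

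At 2.5 to 3 h, when all 6 mRNAs had fallen in wild type, most of them were higher in the HIRA and H3.3 mutants. gnu, the activating subunit of the kinase, was at 21.9 and 20.6 CPM in the libraries labelled HIRA mutant, against 3.21 and 2.15 CPM in wild type. In H3.3 mutants it was at 67.7 and 64.7 CPM, against 7.55 and 7.47 CPM in wild type. No mutant library overlapped its wild type, and the differences were 7.76-fold (log2 2.96, SE 0.11, adjusted p 2.15e-11) and 8.81-fold (log2 3.14, SE 0.072, adjusted p 1.56e-17). The poly(A) polymerase wisp was at 961 and 957 CPM in the libraries labelled HIRA mutant, against 229 and 225 CPM in wild type, and at 1214 and 1187 CPM in H3.3 mutants, against 271 and 308 CPM in wild type. Again no libraries overlapped. These were differences of 4.23-fold (log2 2.08, SE 0.13, adjusted p 7.02e-07) and 4.15-fold (log2 2.05, SE 0.063, adjusted p 4.84e-16). The calcineurin regulator sra was at 89.0 and 90.1 CPM in the libraries labelled HIRA mutant, against 25.4 and 25.1 CPM in wild type. In H3.3 mutants it was at 109 CPM in both libraries, against 31.4 and 32.0 CPM in wild type. It was thus 3.55-fold (log2 1.83, adjusted p 1.00e-12) and 3.45-fold (log2 1.78, adjusted p 7.88e-15) higher.

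The remaining kinase subunits divided the mutants. plu was at 25.3 and 23.8 CPM in the libraries labelled HIRA mutant, against 10.2 and 9.26 CPM in wild type (2.50-fold, log2 1.32, SE 0.087, adjusted p 2.38e-09). It was at 17.8 and 19.6 CPM in H3.3 mutants, against 11.3 and 8.91 CPM in wild type in a difference past the adjusted p but not the fold (log2 0.87, SE 0.14, adjusted p 2.92e-05). png, in contrast, was at 8.61 and 9.26 CPM in H3.3 mutants, against 2.74 and 2.27 CPM in wild type, 3.53-fold higher (log2 1.82, SE 0.12, adjusted p 8.03e-11). In the libraries labelled HIRA mutant it was at 2.66 and 2.41 CPM, and in wild type at 2.00 and 2.80 CPM, so that the groups overlapped and the test was not passed (log2 0.10, 95% interval -0.29 to 0.50, adjusted p 0.65). The difference between the 2 mutants in this respect was itself tested, in a fit over all libraries chosen after seeing the data. The png effect in HIRA mutants was lower than that in H3.3 mutants by 1.49 log2 units (SE 0.23, adjusted p 2.94e-07), the plu effect was higher by 0.67 (adjusted p 0.000967), and those of wisp and sra were higher by 0.25 and 0.26 (adjusted p 0.0345 and 0.0058). The gnu effects did not differ past the test (0.03, 95% interval -0.25 to 0.31, adjusted p 0.898), nor did those of cort (-0.46, adjusted p 0.0758). Of all genes tested, 70.6% passed the adjusted p in this comparison of the mutants.

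cort was the exception in both mutants. It was at 2.01 and 2.25 CPM in the libraries labelled HIRA mutant, against 3.04 and 3.82 CPM in wild type, and so lower (log2 -0.66, SE 0.17, adjusted p 0.00222). It was at 5.95 and 5.82 CPM in H3.3 mutants, against 5.99 and 5.62 CPM in wild type (log2 0.02, 95% interval -0.21 to 0.24, adjusted p 0.917). The genes cup and CG34310, which share exon bases with cort, were higher at this stage. They differed by 1.93 and 1.54 log2 units in HIRA and by 2.18 and 1.86 in H3.3 mutants. The part of shared reads in the cort values was not tested. Counted past both thresholds, 4 of 6 genes were higher in each mutant, where 9.88% of all genes were higher in the HIRA experiment and 25.7% in the H3.3 experiment. The median log2 difference over the 6 was 1.57 in HIRA and 1.80 in H3.3 mutants, beside -0.28 and -0.06 over all genes tested. In both, 1 gene missed the adjusted p, png in the HIRA and cort in the H3.3 mutant. Leaving out any 1 of the libraries compared moved no called value below the fold, the widest range being that of gnu in the HIRA experiment, 2.78 without wild-type replicate 2 and 3.36 without wild-type replicate 1.

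Most of the differences at 2.5 to 3 h were absent from, or smaller at, the stage before. At 1 to 1.5 h the HIRA mutants differed from wild type past the test in png alone (log2 0.25, adjusted p 0.0155), a difference that was -0.11 and not past the test when scaled on ribosomal protein genes. Under that scaling gnu (-0.28, adjusted p 0.0221) and sra (-0.31, adjusted p 0.00482) passed the test in the lower direction. Over the last interval the libraries labelled HIRA mutant kept 84.1% of wisp, 73.5% of plu, 66.7% of sra and 8.05% of gnu, where wild type kept 18.6%, 27.6%, 19.5% and 1.07%. H3.3 mutants kept 96.1% of plu, 81.4% of sra, 79.1% of wisp, 28.6% of gnu and 15.4% of png, where wild type kept 30.2%, 25.1%, 22.4%, 2.96% and 4.87%. For cort the shares lay the other way: 5.72% was kept in HIRA mutants against 8.16% in wild type, and 7.41% in H3.3 mutants against 11.2%. The mutant change of cort minus that of wild type was -0.49 (adjusted p 0.038) in the HIRA and -0.60 (adjusted p 0.000305) in the H3.3 experiment. H3.3 mutants, however, entered this interval with more cort than their wild type. Counted from 0.5 to 1 h, 6.34% of cort was kept in H3.3 mutants and 7.01% in wild type. In the HIRA experiment these shares were 3.01% and 4.25%. From that earlier stage none of the 6 genes fell further past the test in H3.3 mutants than in wild type. Over the last interval, falls past both thresholds were seen for 3 of 6 genes, png, gnu and cort, in each mutant, where 19.6% of all genes fell in HIRA and 17.4% in H3.3 mutants. The change of wisp in HIRA mutants and that of plu in H3.3 mutants did not pass the test (-0.25, adjusted p 0.0893, and -0.06, adjusted p 0.676). Over all 10 interval differences between a tested genotype and its wild type, 39 of 60 gene and interval pairs passed the adjusted p, where 41.9% of all pairs did.

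**Figure D4:**
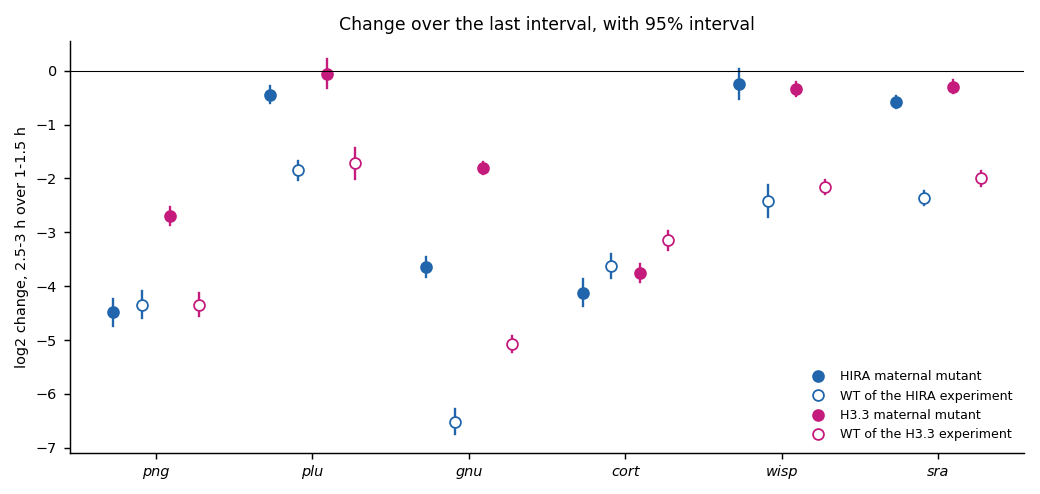
Log2 change of each gene at 2.5 to 3 h over 1 to 1.5 h in HIRA and H3.3 mutants (filled) and in their wild types (open), with 95% intervals. Mutant and wild type are far apart for gnu (-3.64 against -6.51 and -1.81 against -5.08), wisp, sra and plu, apart for png in the H3.3 experiment only (-2.70 against -4.34), and for cort the mutants lie below their wild types (-4.12 against -3.63 and -3.75 against -3.15).

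Ratios within a library separated the mutants in the same way. At 2.5 to 3 h there were 44.3 and 40.0 sra counts per cort count in the libraries labelled HIRA mutant and 8.34 and 6.58 in wild type, with 18.3 and 18.8 in H3.3 mutants and 5.24 and 5.69 in wild type. For plu per png the ratios were 9.49 and 9.87 in HIRA mutants against 5.13 and 3.31 in wild type, and 2.06 and 2.11 in H3.3 mutants against 4.14 and 3.92 in wild type. They were above wild type in the first and below it in the second. In both mutants the early zygotic list was lower at this stage, with sums of 3804 and 3953 CPM in the libraries labelled HIRA mutant against 5593 and 5816 CPM in wild type. The sums were 4122 and 4110 CPM in H3.3 mutants against 6311 and 6589 CPM in wild type. Past both thresholds 8 of its 21 genes were lower and 1 higher in the HIRA experiment, where 27.7% of all genes were lower and 9.88% higher. In the H3.3 experiment 10 were lower and 3 higher, where 17.7% of all genes were lower and 25.7% higher. Since the study describes most HIRA mutant embryos of this age as arrested or delayed, slower clearance and a younger developmental stage cannot be told apart here. The libraries hold whole embryos in pools, so that fewer embryos with an RNA and less of it in each embryo cannot be told apart either. CPM are shares of a library and not molecules per embryo.

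Before 1.5 h the maternal mutants differed from wild type by less than 1 log2 unit in every one of the 6 genes. In H3.3 mutants plu was lower, at 27.9 and 23.9 CPM against 31.4 and 36.7 CPM in wild type at 0.5 to 1 h (log2 -0.40, adjusted p 0.0151) and at 21.5 and 17.3 CPM against 34.9 and 32.2 CPM at 1 to 1.5 h (log2 -0.79, SE 0.12, adjusted p 7.56e-05). cort moved the other way, at 81.4 and 77.5 CPM in H3.3 mutants of 1 to 1.5 h against 51.3 and 52.2 CPM in wild type (log2 0.62, SE 0.059, adjusted p 7.96e-08), with 85.6% of its earlier level kept where wild type kept 62.5%. These H3.3 libraries are also those with the highest sum of eggshell genes, whose part was not tested. In HIRA mutants of 0.5 to 1 h plu was likewise lower, at 28.4 and 29.3 CPM against 42.6 and 37.8 CPM in wild type (log2 -0.48, adjusted p 8.74e-05), while wisp was higher, at 1488 and 1578 CPM against 753 and 979 CPM (log2 0.82, SE 0.12, adjusted p 0.000727). The wild-type libraries of that comparison were the furthest apart of any replicate pair for wisp, and they held 58.1 and 54.4 CPM of eggshell genes where HIRA mutants held 1.43 and 1.06 CPM.

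Genes of the same pathways were read from 7 lists. The shares of all genes past both thresholds, against which their counts are set, were 9.88% higher and 27.7% lower in HIRA and 25.7% higher and 17.7% lower in H3.3 mutants of 2.5 to 3 h. Among 21 genes of the APC/C, its activators and its substrates, 3 were higher past both thresholds at 2.5 to 3 h in each mutant, fewer than 25.7% of the list in H3.3 mutants. They were the APC/C subunit APC7 (log2 1.74 in HIRA, 2.74 in H3.3 mutants), the Polo inhibitor mtrm (2.28 and 2.41) and the cyclin CycB (1.29 and 1.28). In each mutant 1 gene was lower, ida in HIRA and Cks85A in H3.3 mutants, both named after their values were seen. The list's median was -0.15 in HIRA and -0.30 in H3.3 mutants, near the medians of all genes, -0.28 and -0.06. Of the same list, 3 were lower in mislocalized dPCIF1 embryos of 1 to 1.5 h, cort itself, mtrm (-1.70) and APC7 (-1.13), where 14.5% of all genes were, and 2 in HIRA overexpression embryos, cort and mtrm (-1.33), where 6.94% of all genes were. In the calcium and calcineurin list of 9, sra among them, 6 were higher in H3.3 mutants of 2.5 to 3 h, beside 25.7% of all genes. Those of the largest change were the calcineurin genes CanA1 (3.77), CanB (3.40) and CanB2 (2.64). CanB2 was at 61.9 ± 0.82 CPM in H3.3 mutants against 9.92 ± 0.090 CPM in wild type (SD, n = 2 each). CanA1 was at 3.298 CPM in H3.3 mutants against 0.2375 CPM in wild type. CanB was at 2.005 CPM against 0.2030 ± 0.2203 CPM (SD, n = 2). In these wild-type libraries 3 counts make 0.133 and 0.17 CPM, so the folds of CanA1 and CanB rest on few wild-type counts. The list of the later, differentiated embryo was also raised in these mutants, and its part was not tested. In HIRA mutants 3 were higher, sra and, named after their values were seen, CanB2 and Pp2B-14D, beside 9.88% of all genes. CanA1 and CanB differed in the opposite direction there. CanA1 had no counts in either library labelled HIRA mutant and 1.62 ± 0.31 CPM in wild type, and CanB was at 0.430 ± 0.31 CPM in the libraries labelled HIRA mutant and 1.63 ± 0.10 CPM in wild type (SD, n = 2 each). CanB2 was also lower with HIRA overexpressed at 1 to 1.5 h (-1.11), and the calcineurin A gene Pp2B-14D was lower in mislocalized dPCIF1 embryos (-1.004).

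Of the 5 polyadenylation genes, 3 were higher and 1 lower past both thresholds in each mutant at 2.5 to 3 h, beside 9.88% of all genes higher in HIRA and 25.7% in H3.3 mutants. The third of those higher, beside the CPEB homologue orb and wisp, was orb2, named after its values were seen. orb was higher (2.58 in HIRA and 2.64 in H3.3 mutants), while Gld2, the paralogue of wisp, was lower (-1.21 and -2.17). It was at 14.4 ± 1.7 CPM against 33.2 ± 2.9 CPM in HIRA mutants and wild type, and at 8.93 ± 1.5 CPM against 40.4 ± 2.7 CPM in H3.3 mutants and wild type (SD, n = 2 each). In mislocalized dPCIF1 embryos of 1 to 1.5 h Gld2 was higher, by 2.14, as was the poly(A) polymerase gene hrg, by 1.52. Of 11 translational repressors and their partners, 4 were higher past both thresholds in each mutant and none lower, beside the same shares of all genes, 9.88% and 25.7%. smg, whose translation depends on the PNG kinase, was at 2054 ± 63 CPM in the libraries labelled HIRA mutant and 244 ± 8.0 CPM in wild type (log2 3.07), and at 2106 ± 60 CPM in H3.3 mutants and 410 ± 23 CPM in wild type (log2 2.36, SD, n = 2 each). cup, which represses nanos and oskar mRNA, was higher by 1.93 and 2.18. In the 1 to 1.5 h collections BicC, an RNA-binding repressor of the oocyte, was lower in mislocalized dPCIF1 (-2.56), HIRA overexpression (-2.10) and S111A S115A embryos (-1.42), and higher in co-overexpression than in HIRA overexpression embryos (1.75), and nos was lower in mislocalized dPCIF1 embryos (-1.36).

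Of 13 kinases, phosphatases and other genes of meiosis and the early mitoses, 5 were higher in HIRA and 7 in H3.3 mutants of 2.5 to 3 h and none lower past both thresholds, beside 9.88% and 25.7% of all genes higher. The list medians were 0.73 and 1.08, beside -0.28 and -0.06 over all genes. The CDC25 phosphatase twe was higher by 3.33 and 2.73, the PP2A regulatory subunit tws by 1.43 and 2.30, and fs(1)Ya, a nuclear lamina protein needed for the first mitosis, by 2.20 and 2.21. The maternal tubulin alphaTub67C and fs(1)Ya were the 2 lower at 1 to 1.5 h, with log2 differences of -2.62 and -1.54 in mislocalized dPCIF1 and -1.99 and -1.28 in HIRA overexpression embryos. Of all genes, 14.5% and 6.94% were lower past both thresholds in these comparisons. In the list of 5 other nuclear cycle genes, geminin was higher and mei-41 lower in HIRA mutants of 2.5 to 3 h, and none passed both thresholds in H3.3 mutants. In the kinase complex itself, 2 of 3 subunits were higher past both thresholds in each mutant, beside 9.88% and 25.7% of all genes. In mislocalized dPCIF1 and in HIRA overexpression embryos of 1 to 1.5 h 1 of 3 was lower, beside 14.5% and 6.94% of all genes. Of 10 maternal mRNAs known to be cleared at this time, nos, smg, twe and CycB among them, 6 were higher in HIRA and 8 in H3.3 mutants at 2.5 to 3 h, where 9.88% and 25.7% of all genes were. Their medians were 1.49 and 2.06, beside which the medians of the 6 egg activation genes were 1.57 and 1.80.

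Over all 26 groups, on a scale common to all libraries, gnu spanned the widest range, 128-fold between the highest group mean (302.1 CPM, the HIRA experiment's wild-type embryos of 0.5 to 1 h) and the lowest (2.36 CPM, those of 2.5 to 3 h). cort spanned 58.4-fold, between 128.5 CPM (the mislocalized dPCIF1 experiment's wild type of 0.5 to 1 h) and 2.20 CPM (HIRA mutants of 2.5 to 3 h). png spanned 52.3-fold, between 110.1 and 2.11 CPM. wisp (7.65-fold, 1523 to 199.2 CPM), sra (6.19-fold, 137.4 to 22.2 CPM) and plu (4.72-fold, 40.5 to 8.58 CPM) varied less. When the groups were ranked for a gene, neighbouring groups overlapped in their libraries for 20 of 25 steps in plu, 19 in wisp, 18 in sra, 16 in gnu, 13 in png and 12 in cort, so that the order of groups was best resolved for cort and png. Apart from the low 2.5 to 3 h groups, most neighbours in the order of plu, wisp and sra were not separated.

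Between the 6 genes, Pearson correlations of log2 CPM over the 26 group means ran from 0.52 for cort with wisp (Spearman 0.06) to 0.96 for png with cort (Spearman 0.92) and 0.96 for wisp with sra (Spearman 0.83). gnu was close both to png (0.94) and to sra (0.93), and plu was closest to gnu (0.89). These are descriptions over groups that share stages and wild types. Among 7383 genes with at least 10 CPM in some group, those most like png were CG10932 (0.996), CG3608 (0.995) and Gdi (0.994), and those most like cort were CG10959 (0.993), D19A (0.993) and CG6638 (0.992). For gnu they were E23 (0.996), CG7158 (0.994) and CG6565 (0.994), for sra CG5726 (0.996), smg (0.994) and Syx7 (0.991), for wisp g (0.973), CG32365 (0.972) and Aef1 (0.972), and for plu CG9272 (0.962), Tsp39D (0.961) and Past1 (0.960). Ranked by Spearman correlation instead, 1 of these 18 genes stayed among the 3 most like its member.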

How the data were processed

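The labels describe rRNA-depleted, strand-specific libraries of total embryo RNA, although the molecule field reads polyA RNA. Per the submitters' processing notes, tools were Trimmomatic 0.39, STAR 2.7.10a, RSEM 1.3.1 and DESeq2 1.40.2 on dm6. The authors deposited, for each library, an expected count, TPM and FPKM per gene (FPKM not used), and 94.0% to 97.2% of the expected counts are whole numbers. Whether counting used strand is not given in the sources used here, so reads of cort and cup, CG34310, or of sra and Bin1, may be shared. Expected counts were rounded and fitted once per experiment with edgeR 4.0.16 (R 4.3.3, limma 3.58.1) by its quasi-likelihood test, TMM factors and filterByExpr (minimum count 10, total 15), leaving 8700 to 10644 genes, with Benjamini-Hochberg adjustment over all of them. Calls needed an adjusted p under 0.05, with or without an absolute log2 fold change above 1. CPM beside a test are scaled within that experiment, and levels over all 26 groups over all 52 libraries. The scales differ by 0.933% to 11.5%. Counts cover counting error only, and 2 libraries a group are the only replication. The labels call them replicates. Their chi-square per degree of freedom was 2.13 to 36.1, a spread above counting error alone, which does not show how the replicates were made. Of each list at most 3 genes were named per comparison, those of the largest change past both thresholds, and a gene outside this rule is said to have been named after its values were seen. Of the listed genes, vihar and bru1 matched no gene name. Alternatives were RLE factors, library totals, ribosomal protein scaling, DESeq2 1.42.0, no filter, only the groups compared, all libraries in 1 fit, a replicate block and each library left out. The members and lists were chosen with earlier results of these data known. The code was tested on simulated data.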

Additional observations from a re-analysis of the deposited data

Results flagged for a closer look

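In 12 cases the change of a gene between neighbouring stages differed between a tested genotype and its own wild type by more than 1 log2 unit in the edgeR test of the difference itself (Benjamini-Hochberg adjusted). The span of 2.5 to 3 h against 0.5 to 1 h is left out of this count. Over that span 4 of 6 genes were higher past both thresholds in HIRA and 5 of 6 in H3.3 mutants. Of all genes, 1075 of 10638 and 1993 of 10644 were. Groups of 2 libraries allow no search for single outlying samples. Over the first interval, gnu in the mislocalized dPCIF1 experiment changed by -1.13 in the mutant and 0.33 in wild type, a difference of -1.46 (adjusted p 1.04e-18). In that experiment cort changed by -2.17 against -1.13, a difference of -1.03 (adjusted p 3.35e-12), and with HIRA overexpressed cort changed by -2.60 against -0.63, a difference of -1.97 (adjusted p 2.49e-18). The gnu difference rests in part on a wild type that stood apart from the others at 0.5 to 1 h. Of all genes, 932 of 8700 differed past both thresholds in the lower direction in the mislocalized dPCIF1 experiment and 469 in the higher. With HIRA overexpressed these were 623 and 680 of 8974.

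The other 9 concern 2.5 to 3 h against 1 to 1.5 h. Of all genes, 1464 of 10638 differed past both thresholds in the higher direction over this interval in the HIRA experiment and 705 in the lower. In the H3.3 experiment these were 1256 and 1735 of 10644. In the libraries labelled HIRA mutant plu differed by 1.40 (-0.45 against -1.85, adjusted p 6.21e-08), gnu by 2.88 (-3.64 against -6.51, adjusted p 7.25e-10), wisp by 2.17 (-0.25 against -2.43, adjusted p 9.94e-06) and sra by 1.77 (-0.58 against -2.36, adjusted p 1.12e-10). In H3.3 mutants png differed by 1.65 (-2.70 against -4.34, adjusted p 5.52e-09), plu by 1.66 (-0.06 against -1.72, adjusted p 8.36e-07), gnu by 3.27 (-1.81 against -5.08, adjusted p 9.49e-16), wisp by 1.82 (-0.34 against -2.16, adjusted p 6.98e-13) and sra by 1.70 (-0.30 against -1.99, adjusted p 3.12e-12).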

How the results depend on the processing

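Under every alternative run, the counts of calls stayed within 1.5 times of those reported: 15 to 18 beside 16 for genotype pairs past both thresholds, and 58 to 64 beside 60 for the adjusted p alone. With each library left out in turn they were 16 to 17 and 57 to 61, 25 to 26 (beside 25) for wild-type intervals, 19 (beside 19) for intervals of tested genotypes and 36 to 41 (beside 39) for interval differences. None of the 16 called pairs lost its adjusted p in its 12 alternatives. Scaling on ribosomal protein genes turned the direction of 7 values. Of these, gnu (-0.28) and sra (-0.31) in HIRA mutants of 1 to 1.5 h then passed the edgeR test. So did the HIRA minus wild type first-interval difference of cort (-0.29, adjusted p 0.0305) and sra in co-overexpression embryos of 0.5 to 1 h (-0.12, adjusted p 0.0141). The others did not: png in HIRA mutants of 1 to 1.5 h (-0.11), the first-interval change of plu in HIRA mutants (-0.043) and gnu in H3.3 mutants of 1 to 1.5 h (0.013). The cause was not tested. Of the 18 most alike genes, 1 stayed in place by Spearman correlation. Neighbouring groups were separated 49 times on library totals, beside 52. With the replicate block the counts were 16, 61, 25, 19 and 39, and the numbers do not pair the samples (correlations of same-numbered deviations from -0.16 to 0.18). The lowest count of any of the 6 genes in a library was 34 (cort), so that depth limits most the values of png, gnu and cort at 2.5 to 3 h.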
